A study of Arabidopsis thaliana with 15 samples.

Results

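Ribosome biogenesis factors are the proteins that cut, modify and fold the precursor of ribosomal RNA and assemble it with ribosomal proteins. The work starts in the nucleolus, where RNA polymerase I makes the precursor, small nucleolar RNPs guide its chemical modification, and separate sets of factors build the small and the large subunit. In plants, as in yeast, these genes are known to be most active in growing and dividing cells, which in a root lie mostly near the tip.

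The loci described here are AT3G12860, AT3G05060, AT3G18600, AT1G06720, AT1G69070, AT4G04940 and AT2G40360, taken as probe sets annotated to listed nucleolar ribosome biogenesis loci. Of 8 listed loci, 7 had a probe set of their own among the 22810 on the array. The remaining locus, AT5G27120, was left out because its only probe set also detects AT5G27140. The loci were chosen by their measured values in these same arrays, namely their low signal in the cortex, so the cortex values below are a description without a test. Differences among the other 4 populations were not part of that choice as far as is known, and they were tested.

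Root cells came from Arabidopsis thaliana seedlings of the Columbia ecotype, which were 5 days old and had been moved to medium without sulfur for 3 h. The roots were protoplasted and cells were sorted by the fluorescence of a marker line, and each population was measured on 3 Affymetrix arrays. The cortex came from the line pCOR::GFP, the columella root cap from Pet111, the endodermis with the quiescent center from pSCR::GFP, the epidermis with the lateral root cap from pWER::GFP, and the stele from pWOL::GFP. Each population thus rests on 1 marker line and contains the cells that the line labels, sulfur deprivation is shared by all 15 arrays, and no array on full medium was analysed here. Whether the replicates were grown and sorted separately is not stated in the labels, so the spread behind each p-value may be technical.

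The populations were set against lists of markers, and 2 arrays stood apart from their labels. Several of these markers had been named in earlier results of these data, so they are no independent check of the labels. AT1G62510, taken as a cortex marker, had a signal of 1541 to 2230 on the cortex arrays and at most 218 elsewhere. Its cortex difference, 5.71 log2, was the largest of all tested probe sets. PPDK, a root cap marker here, reached 4267 to 7558 on the columella arrays, and AT2G39430, an endodermis marker, reached 3932 to 6049 on the endodermis arrays. Other markers set the cortex and the endodermis apart less well. JKD, listed for the cortex, averaged 7.40 log2 there and 7.35 in the endodermis. SGN3, listed for the endodermis, had 3223 to 3942 there and 1124 to 1421 in the cortex. By limma, SGN3 was called higher in the cortex than in the other 4 populations (2.61, adjusted p = 0.0024). CO2, listed for the cortex, did not pass the filter. In correlations over all tested probe sets, the nearest array was one of the same population for 12 of 15 arrays. Epidermis replicate 2 lay nearest to stele replicate 2 (r = 0.973, against 0.826 at best with its own population), and stele replicate 1 nearest to epidermis replicate 3 (r = 0.965, against 0.845). PPDK was at 4.62 on epidermis replicate 2, against 273 and 210 on the other epidermis arrays, and at 312 on stele replicate 1, against 9.56 and 16.1 on the other stele arrays. The markers of the epidermis and the stele, of which 2 of 6 and 2 of 7 were tested, did not set these populations apart from each other as labelled. EXPA7, a root hair expansin, had 242, 342 and 369 in the epidermis, against 241, 378 and 49.1 in the stele, and neither it nor EXPA18 was called between them (adjusted p = 0.81 for both by limma). PHV, taken as a stele marker, had 28.5, 540.5 and 26.0 in the epidermis, against 6.46, 383 and 552 in the stele, and neither it nor LHW passed the limma F test among the 4 populations other than cortex (adjusted p = 0.80 and 0.065). Groups were kept as labelled, and results are also given for the 13 arrays left without these 2.

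The core proteins of box C/D small nucleolar RNPs come first. These particles guide ribose methylation of ribosomal RNA, and one of them, U3, is needed to cut the precursor. AT3G12860 and AT3G05060 belong to the family of the yeast core proteins Nop56 and Nop58. This role and those given below for the other loci are general knowledge, since the gene table used here lists these loci without a name. AT3G12860 had deposited signals of 6.59, 2.95 and 4.98 in the cortex, against 57.3, 64.04 and 70.9 in the columella, 39.9, 406 and 119 in the endodermis, 1348, 1684 and 974 in the epidermis, and 792, 2009 and 928 in the stele. The cortex arrays were far below all others, the endodermis arrays were spread over a wide range, and every epidermis and stele array lay above every columella and endodermis array. On the log2(signal + 16) scale, AT3G12860 averaged 4.42 in the cortex and 8.54 over the other 4 population means, a difference of -4.12.

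AT3G05060 had signals of 72.2, 55.0 and 72.3 in the cortex, against 639, 570 and 599 in the columella, 358, 396 and 470 in the endodermis, 1376, 2319 and 738 in the epidermis, and 646, 2632 and 2129 in the stele. Its columella and endodermis arrays were close together, while epidermis replicate 3 and stele replicate 1 were only a little above the columella. The log2 difference of the cortex from the other 4 was -3.14.

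AT3G18600 codes for a DEAD-box RNA helicase, related to yeast Has1, which acts in making both subunits. Its signals were 29.1, 36.4 and 8.37 in the cortex, against 318, 398 and 381 in the columella, 297, 647 and 321 in the endodermis, 1523, 1250 and 987 in the epidermis, and 502, 1687 and 1187 in the stele. The columella and endodermis ranges overlapped and so did those of the epidermis and the stele, with stele replicate 1 below endodermis replicate 2. The cortex difference was -3.95.

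AT1G06720, AT1G69070 and AT4G04940 stand for the small subunit. They are known as relatives of the yeast proteins Bms1, a GTPase, Nop14, and Utp21, a WD-repeat protein, all parts of the large particle that forms around the small subunit precursor. AT1G06720 had signals of 11.6, 20.6 and 39.4 in the cortex, against 145, 193 and 193 in the columella, 64.7, 48.8 and 84.4 in the endodermis, 628, 615 and 459 in the epidermis, and 417, 649 and 529 in the stele. Its columella arrays lay above all its endodermis arrays, and its lowest endodermis array was only a little above its highest cortex array.

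AT1G69070 had signals of 49.0, 24.7 and 32.2 in the cortex, against 87.2, 150 and 125 in the columella, 84.4, 147 and 84.3 in the endodermis, 243, 290 and 122 in the epidermis, and 141, 525 and 315 in the stele. AT4G04940 had 36.6, 30.4 and 42.5 in the cortex, against 160, 178 and 192 in the columella, 76.0, 351 and 131 in the endodermis, 617, 645 and 462 in the epidermis, and 392, 858 and 509 in the stele. AT1G69070 had the smallest cortex difference of the 7 loci, at -1.63, while AT1G06720 and AT4G04940 had differences of -2.66 and -2.41. In AT1G69070 the epidermis and stele arrays overlapped with those of the columella and the endodermis.

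AT2G40360 stands for the large subunit. It is known as the plant relative of the yeast protein Erb1 and mammalian BOP1, which works with the pescadillo protein and a WD-repeat partner in processing the large subunit precursor. Its signals were 159, 91.1 and 94.9 in the cortex, against 1092, 1253 and 1303 in the columella, 800, 1978 and 846 in the endodermis, 4240, 4920 and 1747 in the epidermis, and 2039, 5027 and 4528 in the stele. Endodermis replicate 2 stood above epidermis replicate 3, and the cortex arrays were below all others by a wide margin. The cortex difference was -3.79.

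**Figure D1:**
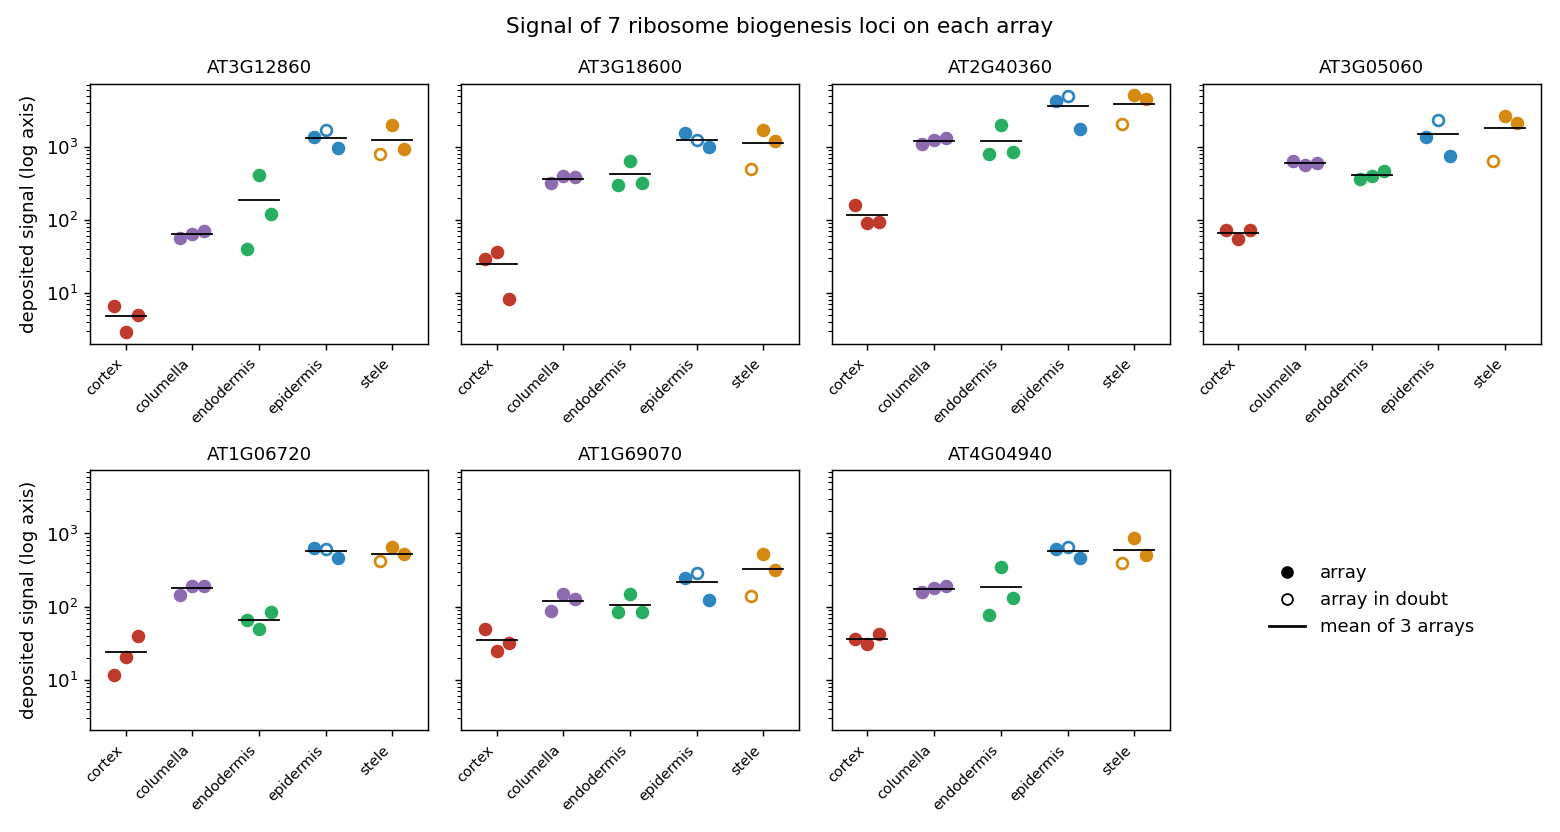
Deposited signal of each of the 7 loci (log axis) on the 3 arrays of each population, with the mean as a bar and open points for the 2 arrays that stood apart from their labels. The cortex arrays are the lowest for every locus, and AT3G12860 has the lowest of all, at 2.95.

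The median cortex difference of the 7 loci was -3.14 log2, with a range from -4.12 to -1.63. The median over all 16123 tested probe sets was -0.07, and 14.6% of them were called lower in the cortex. The cortex arrays did not overlap with those of another population in any of 28 comparisons of 1 locus and 1 population. Since this contrast chose the loci, and the like share over all tested probe sets is not given here, nothing is read from that count. Each locus passed the filter on dim probe sets (above the 40th percentile of an array on at least 3 arrays) through the other populations, where all 84 values were above that level, against 14 of 21 in the cortex. None of the 3 cortex values of AT3G12860 was above it, so its cortex signal is close to background and its log2 difference, which depends on the added 16, understates the ratio of signals. With a pseudocount of 1 the difference was -5.76. Median deposited signal over all probe sets was also lowest on the cortex arrays, at 46.03 to 49.5, against 55.6 to 80.9 on the others. Under the deposited scaling, without quantile normalization, the median cortex difference was -3.39 for the loci and -0.22 for all tested probe sets. In sorted cells, a lower signal can come from fewer cells that express a gene or from less RNA per cell, and these cannot be told apart here.

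Whether the loci also differed among the populations other than cortex was tested with limma. The F test among the columella, endodermis, epidermis and stele was passed by 7 of 7 loci, against 50.9% of all tested probe sets. Adjusted p ran from 8e-06 for AT1G06720 and 3.7e-05 for AT3G12860 to 0.026 for AT1G69070. The AT1G69070 result was lost without columella replicate 1, endodermis replicate 1 or 3, or stele replicate 2 or 3, with adjusted p from 0.057 to 0.0607. Without the 2 arrays in doubt, 7 of 7 passed, against 74.3% of 15907 probe sets.

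In pairs of populations, the columella and the endodermis were low and the epidermis and the stele high. A call needed an adjusted p under 0.05 together with a log2 difference of 1 or more in either direction. In the columella against the epidermis, 5 of 7 loci were lower (median difference -1.72, against 13.0% of all tested probe sets). AT3G12860 differed most, by -4.11 ± 0.54 (SE, adjusted p = 6.6e-05), and the 2 loci that were not called had differences of -1.19 (AT3G05060, adjusted p = 0.062) and -0.83 (AT1G69070, adjusted p = 0.12). In the columella against the stele, 7 of 7 were lower (median -1.59, background 12.9%), from -3.96 ± 0.54 for AT3G12860 to -1.25 ± 0.39 for AT1G69070 (adjusted p = 9.2e-05 and 0.024). This count dropped to 4 without columella replicate 1, to 3 without stele replicate 2 and to 4 without stele replicate 3. The shares of all probe sets called under these removals are not given here.

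The endodermis gave a like picture. Against the epidermis, 6 of 7 loci were lower in the endodermis (median -1.73, background 10.1%), led by AT3G12860 at -3.15 ± 0.54 and AT1G06720 at -2.84 ± 0.29 (adjusted p = 0.00074 and 1.6e-05). AT1G69070 was not called, at -0.90 (adjusted p = 0.099). Against the stele, 7 of 7 were lower (median -1.81, background 8.89%), from -2.99 ± 0.54 for AT3G12860 (adjusted p = 0.0012) to -1.32 ± 0.39 for AT1G69070 (adjusted p = 0.024). The count against the epidermis was 3 without endodermis replicate 1. The count against the stele was 4 without endodermis replicate 1 or 3 or stele replicate 2, and 5 without stele replicate 3. Here too the shares of all probe sets under these removals are not given. The calls of AT3G12860, AT4G04940 and AT1G06720 in these 4 pairs held when any 1 array was left out, and the lost ones were those of AT2G40360, AT3G05060, AT3G18600 and AT1G69070. Endodermis replicate 2 had the highest signal of the endodermis arrays for 5 of 7 loci. In 1 of the actin control pairs, the 3' probe set was 43.0 times as bright as the 5' one on that array. The same ratio was 6.56 and 7.15 in endodermis replicates 1 and 3. This ratio was 17.7, 13.4 and 14.6 in the cortex, 11.2 to 12.8 in the columella, and 9.40, 28.3 and 9.47 in the epidermis. In the stele it was 16.9, 22.0 and 23.0, so that every stele array was above every columella array for this pair. A second actin pair did not show the same gaps. Its 3' and 5' signals were 3824 and 36.5, 4891 and 39.8, and 4269 and 44.8 in endodermis replicates 1 to 3. They were 2690 and 42.3 in stele replicate 1, against 2517 and 22.1 in columella replicate 3. The part of RNA quality in these levels was not tested.

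Within the low and the high pair, few differences were called. Between the columella and the endodermis, AT1G06720 was the 1 locus of 7 called, higher in the columella by 1.12 ± 0.29 (adjusted p = 0.0088). That call was lost without endodermis replicate 2, at a difference of 0.95, with array weights, at 0.996, and with a pseudocount of 64, at 0.80. Of all tested probe sets, 11.8% were called higher and 13.1% lower in this pair, so 1 of 7 is near the background. For the other 6 loci the differences ran from -0.97 to 0.54, and the widest 95% interval, that of AT3G12860, reached from -2.12 to 0.18. Between the epidermis and the stele as labelled, limma called 0 of 7 loci and 0% of all tested probe sets in either direction. At an unadjusted p under 0.05 the counts were 0 of 7 loci and 840 of 16123 probe sets. The locus differences ran from -0.42 to 0.24, with 95% intervals that reached -1.26 and 1.30 at the extremes.

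**Figure D2:**
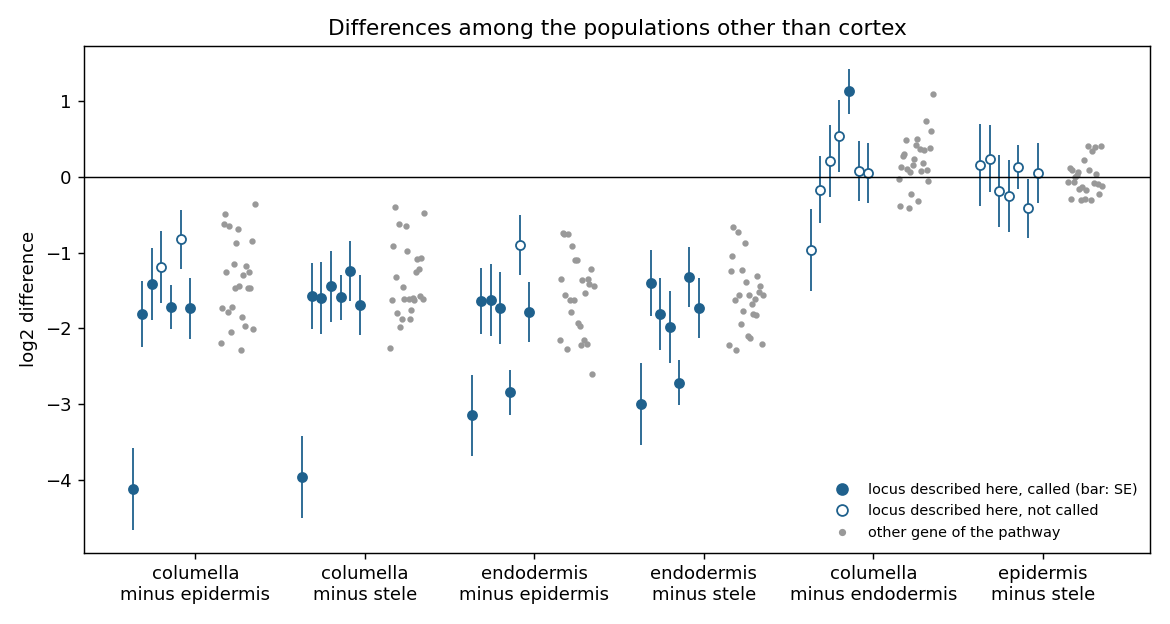
Log2 differences (y axis) for 6 pairs of populations, with the 7 loci in blue (filled where called, bars are SE) and the 25 other pathway genes in grey. The 4 pairs that set the columella or the endodermis against the epidermis or the stele lie below 0 for every gene shown, and the other 2 pairs lie around 0.

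Without the 2 arrays in doubt, 5, 7, 6 and 7 of the 7 loci were lower in the columella against the epidermis, the columella against the stele, the endodermis against the epidermis and the endodermis against the stele. The shares of all probe sets called lower in these pairs were 15.6%, 18.4%, 15.8% and 13.4%. The epidermis and the stele then differed for 2 of 7 loci, both lower in the epidermis. Of all probe sets, 11.5% were called lower and 10.5% higher in this pair. With shares of this size, nothing is read from 2 of 7. AT3G05060 was lower in the epidermis by -1.35 ± 0.27 log2 (adjusted p = 0.0011), with signals of 1376 and 738 on the epidermis arrays left, against 2632 and 2129 on the stele arrays left. AT1G69070 was lower by -1.03 ± 0.37 (adjusted p = 0.044). All 7 differences were negative in that fit, with a median of -0.36, and they rest on 2 arrays per population.

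The loci varied together across arrays. Pearson's r between pairs of them over the 15 arrays ran from 0.841 to 0.983 (median 0.917, 21 pairs), and over the 12 arrays without the cortex from 0.751 to 0.970 (median 0.879). These are descriptions over arrays that share populations and, for replicates, a marker line. The low cortex values that chose the loci raise r over the 15 arrays. The like r between pairs of other probe sets is not given here, so neither range is read against a background. The mean of the loci, each centred on its own average, was -2.54 to -2.39 log2 on the cortex arrays, -0.40 to -0.21 in the columella, -0.90 to 0.20 in the endodermis, 1.02 to 1.95 in the epidermis and 0.81 to 2.28 in the stele.

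The other genes of the pathway were taken from a list of 66 loci, of which 25 had a named probe set and were tested; no member of its groups for box C/D small nucleolar RNPs, nucleolin, subunit export or exonucleases was among them. In the cortex against the other 4 populations, 24 of 25 were lower and 0 higher (also 0 at an unadjusted p under 0.05), beside 14.6% and 13.4% of all tested probe sets. Their median difference was -2.62 log2. For 3 of the 24 (NRPA1, AT3G22660 and AT4G26600) no cortex value was above the 40th percentile. They passed the filter through the other populations, so their cortex calls are read as a description. Of the 22 genes with at least 1 cortex value above that level, 21 were lower. The exception, AT1G77030 of the large subunit group, had 14.5, 12.3 and 36.8 in the cortex and 11.6 to 65.0 elsewhere, a difference of -0.29 (adjusted p = 0.41). AT1G77030 and AT5G38720 had only 1 cortex value above the 40th percentile, and AT3G10530 and NRPA2 had 2. These genes too needed arrays of other populations to pass the filter, so their cortex results are also read as a description. Without the 2 arrays in doubt, 24 of 25 were lower, against 16.4% of all probe sets.

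Both tested subunits of RNA polymerase I, the enzyme that transcribes the ribosomal RNA precursor, were lower in the cortex. NRPA1 (AT3G57660), its largest subunit, had signals of 14.8, 4.46 and 14.2 in the cortex, against 54.8 to 348 elsewhere, a difference of -2.65 ± 0.27 log2 (SE, adjusted p = 3.2e-06). None of its 3 cortex values was above the 40th percentile, so the size depends on the added 16, and it was -3.73 with a pseudocount of 1 and -1.57 with 64. NRPA2 (AT1G29940) had 22.1, 31.7 and 58.9 in the cortex, against 141 to 1330 elsewhere (-3.06 ± 0.34, adjusted p = 6.1e-06). Only 2 of these 3 cortex values were above the 40th percentile, so this call is also read as a description. Both genes of the group for box H/ACA particles, which guide the conversion of uridine to pseudouridine, were lower as well: AT3G03920 by -3.52 ± 0.38 and AT5G08180 by -2.70 ± 0.33.

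All 9 tested genes of the small subunit group were lower in the cortex, with differences from -2.72 to -1.08. YAO (AT4G05410), a nucleolar WD-repeat protein, had signals of 47.0, 40.5 and 44.2 in the cortex, against 157 to 1114 elsewhere (-2.59 ± 0.29, adjusted p = 6.3e-06). NOB1 (AT5G41190), whose yeast relative makes the last cut of the small subunit RNA, had 76.0, 76.3 and 36.9 against 294 to 1797 (-2.72 ± 0.33). IMP4 (AT1G63780), named for a yeast protein of the U3 particle, differed by -1.83 ± 0.38 and DIM1A (AT2G47420), an adenosine dimethyltransferase, by -1.08 ± 0.22. The DIM1A call was lost without cortex replicate 1 (-0.97) and with a pseudocount of 64 (-0.82). The remaining 5, AT5G38720, AT5G15750, AT4G02400, AT5G14050 and AT3G10530, differed by -2.69 to -2.05.

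Of 12 tested genes of the large subunit group, 11 were lower in the cortex. AT1G52930 had the largest difference of the list, at -3.57 ± 0.38 (adjusted p = 4.4e-06), with signals of 63.4, 50.3 and 33.0 in the cortex, against 389 to 2300 elsewhere. PES (AT5G14520), the pescadillo gene, had 97.1, 113 and 124 in the cortex, against 635 to 3806 elsewhere, a difference of -3.52 ± 0.34 (adjusted p = 1.8e-06). AT5G15550, the WD-repeat gene placed beside it on the list, differed by -2.86 ± 0.26, so that the pescadillo gene, this gene and AT2G40360 had cortex differences of -3.52, -2.86 and -3.79. AT3G23620 and the RNA helicase gene PRH75 (AT5G62190) differed by -3.25 and -3.17, and AT3G22660, AT2G40430, AT5G60990, AT4G26600, AT2G37990 and AT3G15460 by -2.82 to -1.38. The differences of AT3G22660 and AT4G26600, dim on all cortex arrays, were -4.49 and -4.04 with a pseudocount of 1, and -1.60 and -1.12 with 64.

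**Figure D3:**
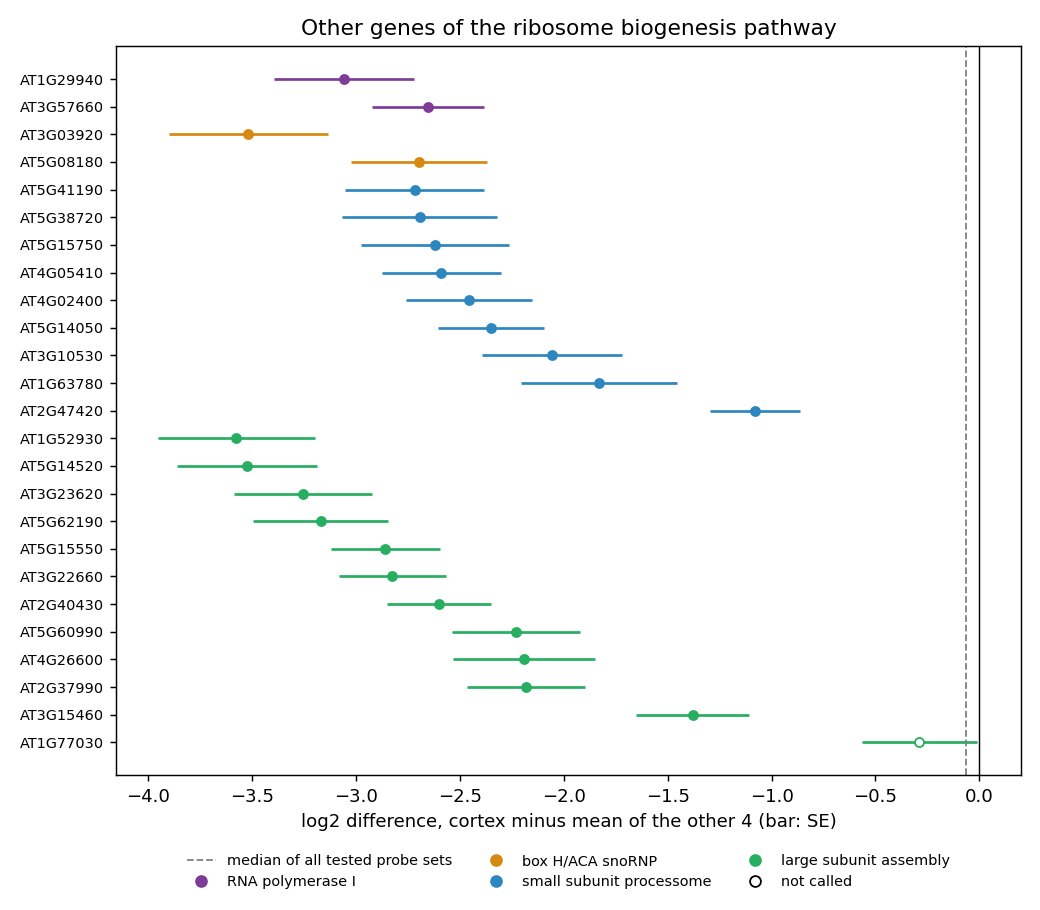
Log2 difference of the cortex from the mean of the other 4 populations (x axis, bars are SE) for the 25 tested pathway genes, coloured by group, with the median of all tested probe sets as a dashed line at -0.07. All genes but AT1G77030 (open point, -0.29) were called lower.

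Among the other 4 populations, 22 of 25 pathway genes passed the F test, read against 50.9% of all tested probe sets. IMP4 (adjusted p = 0.19), AT3G23620 (0.098) and AT1G77030 (0.21) did not. In the columella, 18 of 25 were lower than in the epidermis and 18 lower than in the stele, with medians of -1.44 and -1.57, beside 13.0% and 12.9% of all tested probe sets. In the endodermis, 20 were lower than in the epidermis and 20 lower than in the stele, with medians of -1.53 and -1.57, beside 10.1% and 8.89%. By limma, 0 were called between the columella and the endodermis, beside 11.8% of all tested probe sets called higher and 13.1% lower. Between the epidermis and the stele 0 were called, beside 0% of all tested probe sets. At an unadjusted p under 0.05 the counts were 2 and 0 of 25, beside 6664 and 840 of 16123 probe sets. Without the 2 arrays in doubt, 24 of 25 passed the F test, beside 74.3% of all probe sets, and the 4 pairs in the same order gave 14, 23, 17 and 23 lower, beside 15.6%, 18.4%, 15.8% and 13.4%. AT5G08180 and IMP4 were then lower in the epidermis than in the stele (-1.21 ± 0.30 and -1.36 ± 0.30), beside 11.5% of all probe sets. PRH75 was higher in the columella than in the endodermis (1.09 ± 0.28), beside 13.4%. These 3 are named because their counts were small, after their values were seen.

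The probe sets whose pattern was most like that of the loci were ranked among 8900 tested probe sets of 1 gene by Pearson's r with the mean centred profile over the 15 arrays. The 8 highest were AT5G62440, RBL, AT2G37990 of the large subunit group, AT5G62290, AT4G24830, AT1G50920, PPR596 and AT1G79150, with r from 0.987 to 0.990 over the 15 arrays and 0.986 to 0.991 over 13. AT5G62440 averaged 6.43 log2 in the cortex, 8.06 in the columella, 8.01 in the endodermis, 9.35 in the epidermis and 9.32 in the stele. Each locus set against the mean of the other 6 gave r from 0.904 (AT1G06720) to 0.976 (AT4G04940), at ranks 462 and 49 of the 8900. Many other probe sets thus had a pattern at least as close. The cortex marker AT1G62510 had r = -0.887 with the profile. The profile includes the cortex arrays, whose values chose the loci, so low cortex values of a gene raise its r. These r are a description, and none without the cortex is given here for these probe sets.

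Cell division genes were set beside the loci, since ribosome production and division are both features of the root tip. Of 7 genes on that list, AUR1 and AUR2, for Aurora kinases of mitosis, were tested. Both were called lower in the cortex, beside 14.6% of all tested probe sets. AUR1 had signals of 28.0, 20.8 and 21.5 in the cortex, against 65.8 to 334 elsewhere (-1.92 ± 0.27, adjusted p = 4.8e-05), and was also lower in the columella than in the epidermis and the stele (-1.38 and -1.49). AUR2 had 14.4, 2.16 and 1.27 in the cortex, against 204.98 to 469 elsewhere (-3.72 ± 0.20, adjusted p = 1.1e-08), but among the other 4 populations it did not pass the F test (adjusted p = 0.089). All cortex values of both genes were below the 40th percentile, so they passed the filter through the other populations, where they were high. Their cortex calls are thus read as a description, and the sizes depend on the added 16. With pseudocounts of 1 and 64 the cortex differences were -2.39 and -1.23 for AUR1, and -5.77 and -2.24 for AUR2. Pearson's r with the mean profile of the loci was 0.947 for AUR1 and 0.756 for AUR2 over the 15 arrays. The cortex arrays, whose values chose the loci, are included and raise both r, so these too are a description. The part of a difference in the share of dividing cells in the levels of the ribosome biogenesis loci was not tested.

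**Figure D4:**
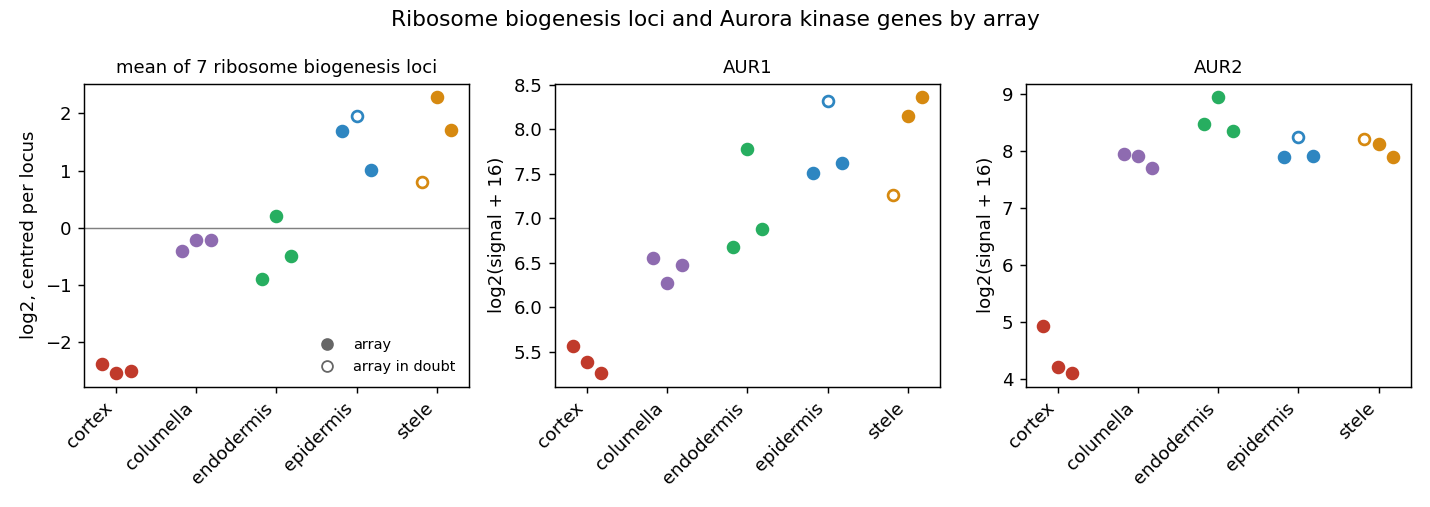
Mean log2 level of the 7 loci, each centred on its own average, and log2(signal + 16) of AUR1 and AUR2 on each array, by population, with open points for the 2 arrays in doubt. The cortex is lowest in all 3 panels, and AUR2 lies between 204.98 and 469 in deposited signal on the 12 other arrays.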

How the data were processed

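Per the submitters' processing notes, the deposited table holds MAS5 signal intensity, not logged, for 22810 probe sets; the MAS5 version and scaling target are not given in the sources used here. Per the labels' protocols, RNA went through 2 amplification cycles before biotin labelling. The deposited intensity had a 2% trimmed mean of 250.022 to 250.029 on every array and medians of 46.03 to 80.9. As these medians differed by over 1.5 times, arrays were quantile normalized, and log2(signal + 16) was analysed. After 64 control probe sets were removed, 16123 passed a filter: signal above the array's 40th percentile on at least 3 arrays. limma 3.58.1 (R 4.3.3) estimated population means from the 15 arrays, with trended empirical Bayes variances and Benjamini-Hochberg adjustment over the tested probe sets per contrast. The code was tested on simulated data. Precision is limited by the number of arrays, and no pair of arrays shared most values.

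In the annotation, 13513 probe sets name 1 gene, 503 several and 8794 are unnamed here, and 13436 of the single-gene ones match a TAIR10.1 locus. Where several probe sets represent 1 gene, the brightest on average stands for it. The loci, lists and tests were chosen with earlier results of these data known. Named are every locus with its own probe set, the pathway genes called in the cortex contrast (the rule took the 20 largest, and the other 5 tested genes are named outside it), the 8 probe sets of most similar pattern, and markers. A list by gene description and a promoter motif search were planned and not made for lack of descriptions and sequences. Alternatives were unnormalized arrays, pseudocounts of 1 and 64, no filter or a 60th percentile one, no trend, array weights, a replicate block, removal of both arrays in doubt, and removal of each array in turn.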

Additional observations from a re-analysis of the deposited data

How the results depend on the processing

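Most counts held under the alternatives. With a pseudocount of 64 or with array weights, 0 loci were higher in the columella than in the endodermis. With a pseudocount of 64, the median cortex difference of the loci was -2.66 log2. Without both arrays in doubt, 2 loci were lower in the epidermis than in the stele, beside 11.5% of all probe sets.

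Leaving out 1 array at a time gave these ranges. The loci past the F test numbered 6 to 7, while the share of all tested probe sets past it ran from 40.6% to 63.2%. The loci lower in the columella numbered 4 to 6 against the epidermis and 3 to 7 against the stele, and between the columella and the endodermis 0 to 1 were called higher and 0 to 1 lower. The loci lower in the endodermis numbered 3 to 6 against the epidermis and 4 to 7 against the stele. For these pairs the shares of all probe sets under each removal are not given here, so the ranges are not read against a background. The pathway genes lower in the cortex numbered 23 to 24, and those past the F test 18 to 24. Of all probe sets, from 2209 of 15898 to 2569 of 16006 were lower in the cortex. The median cortex difference ran from -3.30 to -3.02.

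Replicate numbers were shared across populations. With the replicate block 7 loci passed the F test, beside 51.2% of all tested probe sets. In that fit 24 pathway genes were lower in the cortex, beside 2409 of 16123 probe sets, and the median cortex difference of the loci was -3.14. Same-numbered arrays deviated together (r over 0.1) in only 6 of 30 pairs, with r from -0.516 to 0.724, so the numbers do not pair the arrays. Of 1416 single-gene results under these alternatives, 1369 kept their call, 43 lost it by leaving out 1 array and 4 under the others. No called difference changed sign. Over all tested probe sets, 12994 passed the F test with array weights, against 8206, and 1398 were lower in the cortex with a pseudocount of 64, against 2354.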
